A study of Mus musculus with 8 samples.

Results

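The proteasome genes were taken as the probes whose gene symbol on the array starts with Psm, a letter from a to g and a number, and that lay above the lowest deposited intensity of 20 on at least 4 of the 8 arrays. The symbol pattern matched 86 probes of 49 genes. Of these, 63 probes of 40 genes passed the condition on intensity, out of 12259 probes and 7178 named genes that passed it in the whole series. Of the 40 genes, 38 encode parts, activators or assembly factors of the proteasome. The other 2, Psmc3ip, a meiotic recombination factor, and Psme3ip1, named for binding the product of Psme3, only share the pattern and were kept apart.

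The proteasome is the protease that destroys proteins tagged with ubiquitin. Its core is a barrel of alpha and beta rings whose inner face cuts proteins, and a cap with a ring of ATPases unfolds the substrate and feeds it in. Other activators can dock on the barrel in place of the cap, and in immune cells or under interferon 3 catalytic beta subunits are exchanged for immunoproteasome forms. Red cell precursors use ubiquitin and the proteasome while they remove most of their proteins and organelles on the way to a reticulocyte.

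The RNA came from bone marrow cells of mice aged 8 to 12 weeks, sorted for CD71, the transferrin receptor, and Ter119, an erythroid surface marker. All 8 samples, knockout and control alike, are labelled as mixed strain with a Kap-flox/stopfloxYFP background, and 4 (A4, A8, A11 and A13) are labelled KAP1 KO and 4 (C4, C6, C8 and C9) KAP1 WT. KAP1 is the corepressor encoded by Trim28, no deleter or inducing agent is named in the labels, and separate animals are not stated, so the tests measure the spread between these samples, which may in part be technical. The single comparison of the series is KO against WT.

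Trim28 gave intensities of 207, 171, 141 and 131 in KO and of 740, 395, 641 and 406 in WT, with no overlap (3.28-fold lower, log2 -1.71, SE 0.27, adjusted p = 0.0085 in limma). The erythroid markers were bright in both groups, with 7 of the 8 listed genes measured and a mean log2 intensity per sample of 11.8 to 12.1 (KO) and 11.9 to 12.4 (WT). Of the 7, 1 fell, none rose and 6 did not pass, with 3 above 0 and a median log2 fold change of -0.03. Alas2, the heme synthesis enzyme of red cell precursors, fell 2.07-fold (adjusted p = 0.0132 in limma), and Slc4a1, the red cell anion exchanger, picked out after its values were seen, was 1.55-fold lower (adjusted p = 0.0712), both without overlap. Klf1, also listed and also picked out afterwards, went the other way without overlap, with 3003 to 3381 in KO and 2286 to 2841 in WT. It was 1.25-fold higher (adjusted p = 0.255 in limma). The part of these differences in the proteasome values was not tested. KO sample A8 stood apart from its group, with a mean correlation of 0.894 over tested probes, while the other 7 arrays had values from 0.934 to 0.950. A difference in a mixed sort can come from fewer cells of a type or from less RNA per cell, and these cannot be told apart here.

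Psme3, which encodes a nuclear proteasome activator, fell in KO cells, and Psmb1, which encodes a beta ring subunit, rose. Each is 1 of 38 genes past an adjusted p of 0.05 in limma, so 1 rose, 1 fell and 36 did not pass. Over all 7178 genes, 2.4 percent rose and 3.25 percent fell by the same call, so the share of proteasome genes called was near the background. Most genes of the barrel and the cap had small differences toward higher in KO. Of 25 such genes, 24 had a log2 fold change above 0, where 58.3 percent of all genes did, and their median was 0.50 where that of all genes was 0.11. In 16 of the 25 the KO samples all lay above the WT samples, against 11.3 percent of all genes, and 15 had an unadjusted p under 0.05 as higher, against 15.3 percent. Over all 38 genes, 6 lay below 0 (41.7 percent of all genes), and 2, Psme3 and Psmb10, had an unadjusted p under 0.05 as lower (9.92 percent of all genes). These genes were examined with earlier results of the same arrays known, so the counts describe them and carry no test of the set.

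**Figure D1:**
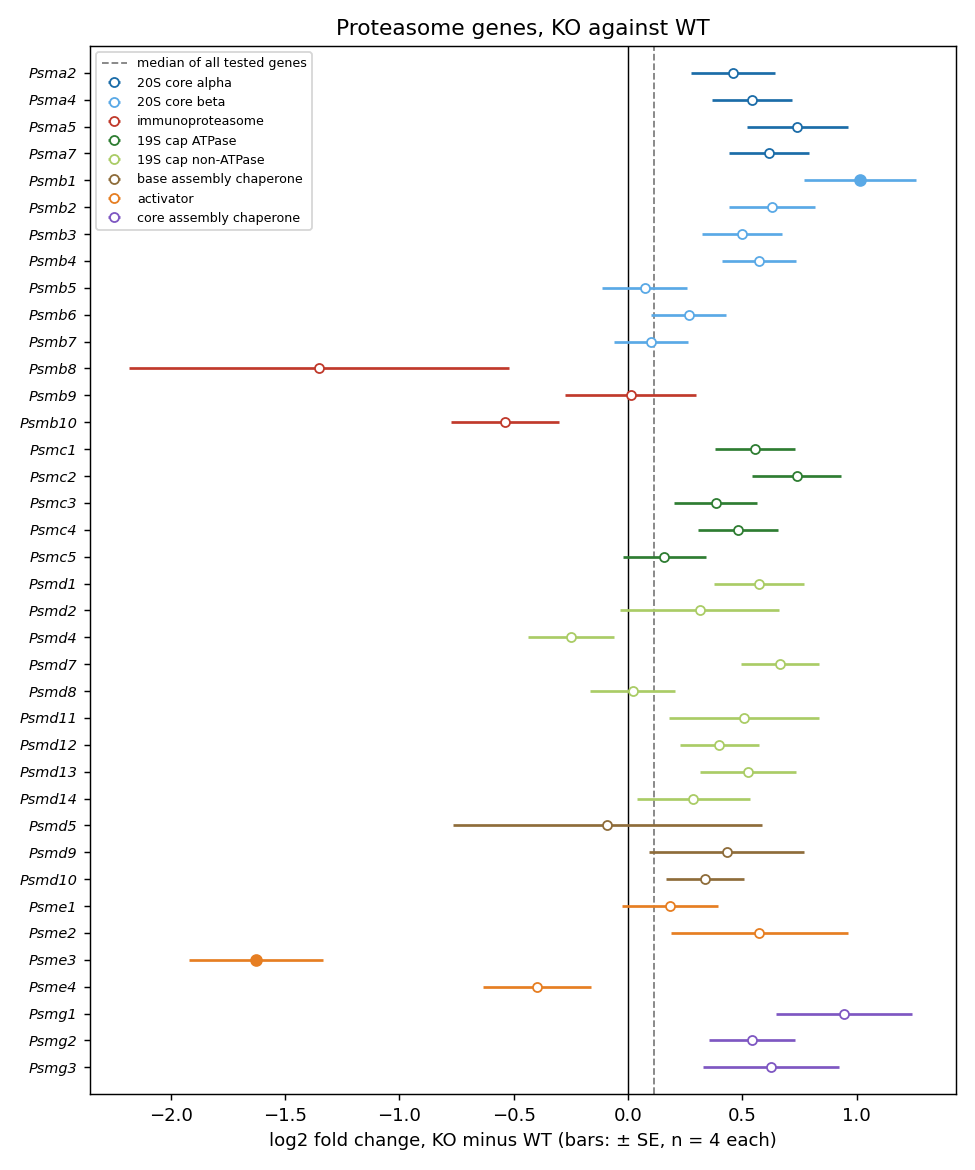
Fitted log2 fold change of KO over WT for the 38 proteasome genes, each by its brightest tested probe, with the standard error as a bar (n = 4 each), colours by role, filled points past an adjusted p of 0.05 and a dashed line at the median of all tested genes (0.11). Most barrel, cap and core chaperone genes lie to the right of the line, Psme3 lies far to the left at -1.63, and the 3 immunoproteasome genes lie at or left of 0.

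The calls on single genes depended on single samples. Without A4, A8, A11, A13, C4 or C9 no proteasome gene passed as higher in limma, although between 11 and 14 of the 25 barrel and cap genes had an unadjusted p under 0.05 as higher in those fits, where 11.4 to 13.7 percent of all genes did. Without C6, 6 genes passed as higher (Psma4, Psma5, Psmb2, Psmb4, Psmc2 and Psmg1), and without C8 only Psmb1 did. Of the 6, Psmg1 then had every WT sample at the floor and had entered the test through its 4 KO samples, so its call there supports nothing. Over all tested probes, 557 passed as higher without C6 and 149 without C8, against 301 with all samples.

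Of the alpha ring genes, which form the gate of the barrel, 4 of 7 were measured, and for all 4 the lowest KO sample exceeded the highest WT sample, but none passed the threshold. Psma5 gave intensities of 2934, 2740, 3603 and 4082 in KO and of 1634, 2535, 1688 and 2171 in WT. The 4 KO samples lay above all WT samples, with WT sample C6 close below A8. The fold difference was 1.67 (log2 0.74, SE 0.22, adjusted p = 0.0842 in limma). Psma7 was measured by 2 probes that gave nearly the same result, 1.53-fold each (adjusted p = 0.074 and 0.0629 in limma), from 757 to 1045 against 551 to 653 at the brighter one. Psma4 was 1.46-fold and Psma2 1.37-fold higher (adjusted p = 0.104 and 0.161 in limma). Psma1, Psma3 and Psma6 sat at the intensity floor at every probe on all 8 arrays. They encode parts that every barrel needs, and a value at the floor says nothing on whether the transcript was present.

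All 7 beta ring genes were measured, of which 7 lay above 0 and 1 passed. Psmb1, Psmb2, Psmb3 and Psmb4 encode structural subunits of the ring. Psmb1 gave 95.7, 97.4, 93.0 and 120 in KO and 34.1, 47.4, 72.9 and 52.9 in WT. Every KO sample lay above every WT sample, and C4 was the lowest. It rose 2.02-fold (log2 1.01, SE 0.25, 95 percent interval 1.38-fold to 2.97-fold, adjusted p = 0.047 in limma). This call held without C8 (adjusted p = 0.0296) but not without A4, A8, A11, A13, C4, C6 or C9 (adjusted p from 0.063 to 0.128), nor with a filter at 1 array or a trended robust prior (adjusted p = 0.0547 and 0.0649). Psmb4 gave 3622, 3504, 3362 and 3633 in KO and 2250, 2708, 2295 and 2266 in WT, a 1.49-fold difference (adjusted p = 0.0702 in limma). Psmb2 was 1.55-fold and 1.54-fold higher at 2 probes (adjusted p = 0.0837 and 0.0668), and Psmb3 1.41-fold (adjusted p = 0.123). In all of them the groups did not overlap.

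The 3 beta genes whose products hold the active sites had the smallest differences of the ring. Psmb5, the chymotrypsin-like site, gave 212, 248, 217 and 281 in KO and 271, 197, 222 and 222 in WT, so the groups overlapped throughout. Its fold was 1.05 (log2 0.07, 95 percent interval -0.34 to 0.49, adjusted p = 0.83 in limma). Psmb6, the caspase-like site, was higher at the brighter probe by 0.27 on the log2 scale (95 percent interval -0.11 to 0.64), where the groups did not overlap (1127 to 1418 against 949 to 1094, adjusted p = 0.344), and 1.14-fold at the other, where they did. Psmb7, the trypsin-like site, was 1.07-fold higher at its brightest probe (95 percent interval 0.833 to 1.38, adjusted p = 0.729), and between 1.06-fold and 1.19-fold at its 3 other probes. The difference between the catalytic and structural genes was not tested.

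None of the 3 immunoproteasome genes passed, and their median log2 fold change was -0.54 where that of the 11 barrel genes was 0.54. Psmb8, which takes the place of Psmb5, was measured by 2 probes. At the brighter, KO samples gave 422, 20, 193 and 292 and WT samples 549, 359, 273 and 376, with A8 at the floor. The fold difference of 2.55 toward lower (adjusted p = 0.339 in limma) rested on A8, since the log2 fold change moved from -1.35 to -0.39 without it. At the dimmer, KO samples gave 46.9, 34.1, 34.6 and 40.2 and WT samples 108, 68.7, 45.8 and 54.1. Only A4 lay above the lowest WT sample there, and the 1.70-fold difference did not pass (log2 -0.76, SE 0.28, adjusted p = 0.136). Psmb10, which replaces Psmb7, gave 208, 157, 136 and 174 in KO and 342, 238, 182 and 233 in WT, 1.45-fold lower with A4 above C8 (adjusted p = 0.195), and 1.08-fold lower at its other probe. Without C4 its log2 fold change at the brighter probe moved from -0.54 to -0.38. Psmb9, which replaces Psmb6, gave 293, 515, 198 and 289 in KO and 347, 335, 267 and 271 in WT, a fold of 1.01 with a 95 percent interval from 0.645 to 1.57 (adjusted p = 0.984). A8 was the highest of the 8 samples for Psmb9 and the lowest for Psmb8.

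The exchange of subunits was compared within each sample as the log2 ratio of the immunoproteasome gene to the gene it replaces, which asks only whether the probes changed unequally. With 4 samples against 4, an exact permutation test can give no p below 0.0286. The ratio of Psmb10 to Psmb7 averaged -2.88 ± 0.25 in KO and -2.24 ± 0.43 in WT (SD, n = 4), and was lower in all 4 KO samples than in any WT sample. The difference of -0.64 had an exact two-sided permutation p of 0.0286, the smallest possible, and 0.0857 after adjustment over the 3 ratios. It was -0.49 with an exact permutation p of 0.229 when all probes of both genes were averaged. The ratio of Psmb8 to Psmb5 differed by -1.42 (exact permutation p = 0.114), but by -0.44 without A8 and by -0.83 at the dimmer probe of Psmb8 (exact permutation p = 0.0571). The ratio of Psmb9 to Psmb6 differed by -0.25 (exact permutation p = 0.486), and by -0.56 without A8. None of the 3 ratios passed after adjustment. A single ratio could not, since at least 2 of the 3 had to reach the smallest p, so the adjusted value decides nothing on Psmb10 to Psmb7.

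**Figure D2:**
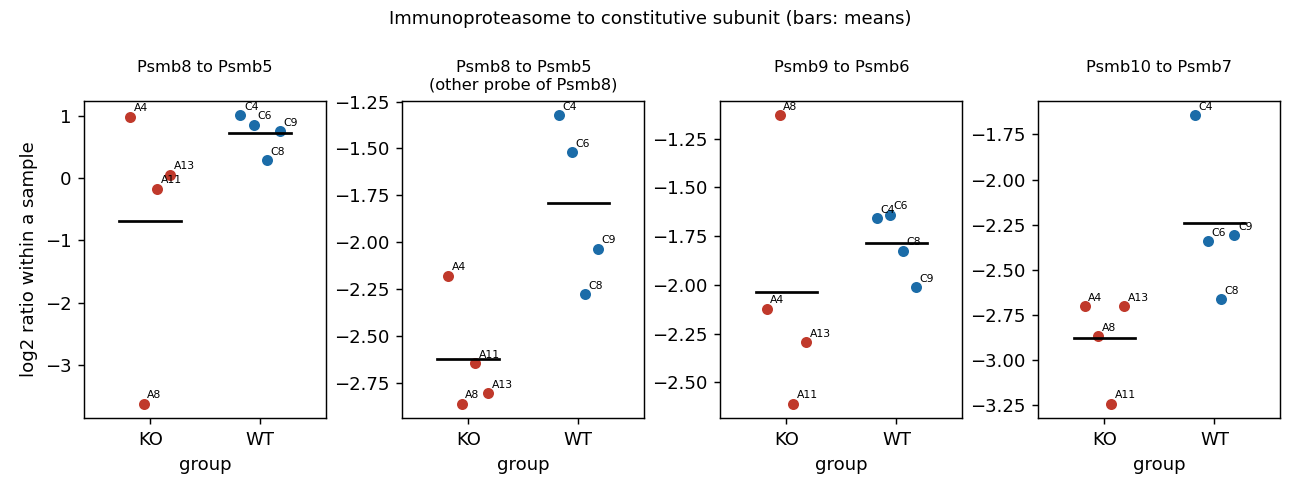
Log2 ratio of each immunoproteasome gene to the constitutive gene it replaces, within each of the 4 KO and 4 WT samples, with group means as bars. The ratio for Psmb10 is lower in all KO samples than in any WT sample, the first panel is drawn down by A8 at -3.63, and A8 is the highest KO sample for Psmb9.

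Genes that work with the immunoproteasome were read beside it. Among 9 measured genes of MHC class I peptide loading, which use the peptides it makes, none passed in limma and none had an unadjusted p under 0.05, with a median log2 fold change of 0.05. The smallest p values were those of the peptide transporter gene Tap1, with intensities of 23.2 to 103 (KO) and 20 to 41.9 (WT), and of the class I gene H2-T23, with 1600 to 2084 and 1901 to 2127. Among 11 measured interferon-response genes, which share their inducer with the immunoproteasome, 3 fell (Rsad2, Oasl2 and Ifi27), none rose and 8 did not pass, with a median of -0.63. Oasl2 gave 97.3, 138, 107 and 95.1 in KO and 1037, 294, 484 and 323 in WT. B-cell markers, which come from a cell type rich in immunoproteasome, averaged 6.69 to 7.80 per sample in KO and 7.70 to 9.06 in WT. These means cover the 8 measured of 12 listed genes, with Ms4a1 and Pax5 below the condition on intensity. Of the 8, 1 fell (H2-Aa, an MHC class II gene, adjusted p = 0.0425 in limma), none rose and 7 did not pass. The 7 include Cd79b, Vpreb1, Vpreb3, Igll1, Blnk and Ebf1, the last of which met the condition through its WT samples. WT sample C4 had the highest B-cell mean (9.06), the highest interferon mean (9.19) and the highest Psmb8 and Psmb10. Other samples were ordered differently. C8 had the next highest interferon mean (8.61) and the lowest Psmb8 (273) and Psmb10 (182) in WT. A8 had the highest interferon mean in KO (8.13) and the lowest value at the brighter probe of Psmb8 (20). The part of these cells and of interferon in the immunoproteasome values was not tested.

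Of the 6 ATPase genes of the cap, whose ring unfolds substrates, 5 were measured and all were above 0. Psmc2 gave 3518, 3909, 4082 and 3838 in KO and 1874, 3024, 2081 and 2366 in WT. The KO samples were close together and all above WT, of which C6 was the highest. The fold was 1.67 (log2 0.74, SE 0.20, adjusted p = 0.0616 in limma), and log2 0.49 at a dimmer probe with overlap between the groups. Psmc1 was 1.47-fold higher, Psmc4 by 0.48 on the log2 scale and Psmc3 1.30-fold, each without overlap between the groups (adjusted p from 0.0989 to 0.225). Psmc5 was the least different, 1.12-fold with overlap (adjusted p = 0.616). Psmc6 sat at the floor at both probes.

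Of 11 other cap genes, 9 were measured, 8 above 0 and none past the threshold. Psmd7, the partner of the deubiquitinase in the lid, gave 746, 733, 834 and 910 in KO and 439, 542, 526 and 524 in WT, without overlap. Its fold was 1.59 (log2 0.67, SE 0.17, adjusted p = 0.0562 in limma), but 1.21 at a second probe, where A8 was at 91.2 and the other KO samples at 368 to 475, and 1.07 at the dimmest. Psmd1, a large scaffold subunit, was 1.49-fold higher without overlap at its brightest probe (adjusted p = 0.119), and Psmd12, a lid subunit, 1.32-fold (adjusted p = 0.187). Psmd13 (1.44-fold, adjusted p = 0.160) and Psmd11 (1.42-fold, adjusted p = 0.366) are lid subunits whose groups overlapped. Psmd14, the deubiquitinase itself, was 1.22-fold higher, the scaffold gene Psmd2 1.24-fold with C8 at the floor, and the lid gene Psmd8 1.01-fold, all with overlap. Psmd4, a ubiquitin receptor of the cap, went the other way. It gave 3094, 2524, 2703 and 3269 in KO and 3595, 3678, 2735 and 3817 in WT, 1.19-fold lower with overlap (adjusted p = 0.432), and it was the 1 barrel or cap gene below 0. Psmd3 and Psmd6 were not measured above the condition on intensity.

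These differences were not even among samples. Relative to each gene's mean over 8 samples, the 25 barrel and cap genes averaged 0.13, 0.15, 0.23 and 0.35 on the log2 scale in A4, A8, A11 and A13, and -0.37, -0.10, -0.23 and -0.17 in C4, C6, C8 and C9. A13 was the highest of all samples for 13 of the 25 genes and C4 the lowest for 16. C6 was the highest WT sample for 13, and it stood nearest to the KO samples. In the same samples, mast cell and basophil markers averaged 6.34 to 6.79 in KO and 5.48 to 6.15 in WT over 4 of 5 genes. Of the 4, 2 rose (Cpa3 and Fcer1a) and 1 fell (Prss34). Cpa3 and Mcpt8 met the condition on intensity through their KO samples, with C4, C8 and C9 at the floor. Their differences are therefore no support for a rise, and the means include them. Progenitor markers averaged 4.67 to 6.37 in KO and 4.32 to 4.67 in WT over 3 genes, none past the threshold, with A13 just below C4. Of these genes, Cd34 and Gata2 lay above the floor on 4 arrays each, so the means are near the floor. Kit and Gata2 met the condition on intensity mostly through KO samples, so their differences are no support for a rise. The megakaryocyte means were 6.10 to 6.66 and 5.46 to 6.10 over 3 of 5 genes, of which Pf4 met the condition through its KO samples. Means of T and NK cell (4.93 to 5.71 against 4.83 to 6.17), neutrophil (11.3 to 12.6 against 11.4 to 12.7) and macrophage markers (6.30 to 7.29 against 6.27 to 7.16) overlapped. No megakaryocyte, neutrophil or macrophage gene passed, and of 6 measured T and NK cell genes 1 fell, Cd2, an adhesion receptor (3.26-fold, adjusted p = 0.0132 in limma). The part of these cells in the barrel and cap values was not tested.

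**Figure D3:**
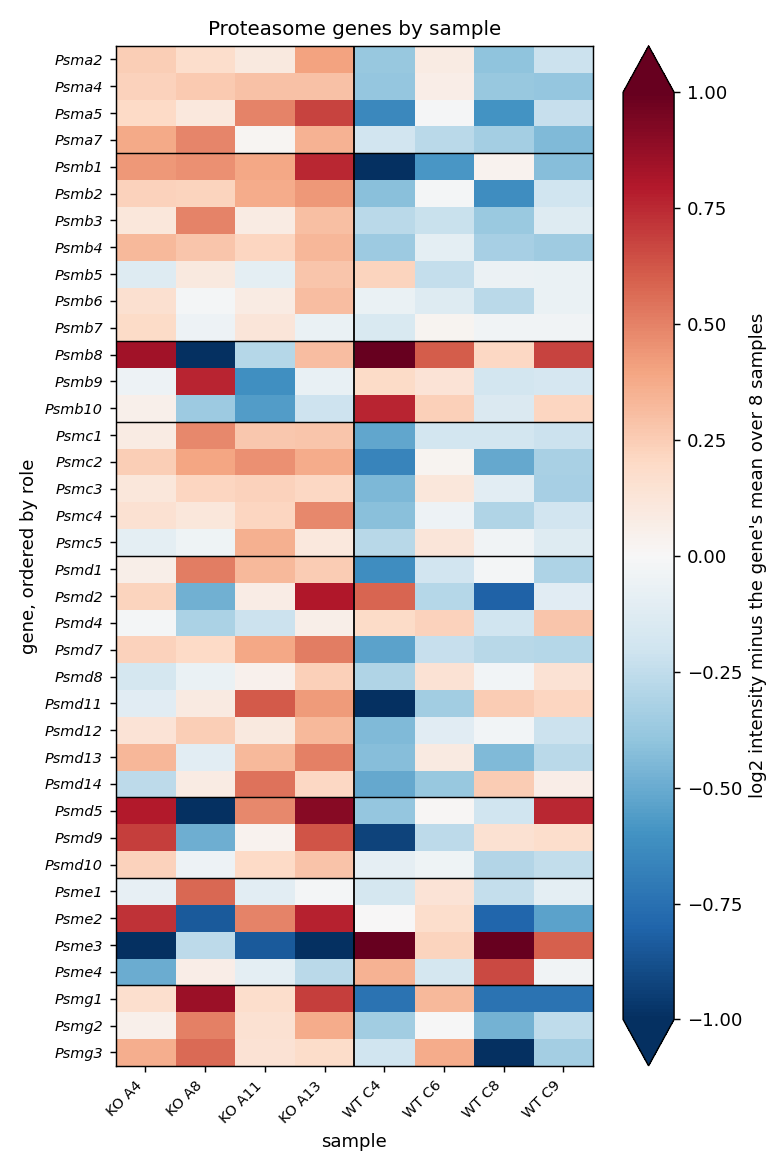
Log2 intensity of each of the 38 proteasome genes in each sample, minus the gene's mean over the 8 samples, with genes ordered by role from the alpha ring to the core assembly chaperones and colours ending at 1 in either direction. The barrel and cap rows are mostly red in KO and blue in WT, C6 is the palest WT column in the barrel, and the Psme3 row shows the opposite colours.

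Of the 4 activator genes, 1 fell and 3 did not pass. Psme3 encodes the activator known as PA28 gamma, a ring found in the nucleus that lets the barrel degrade some proteins without ubiquitin. It gave 747, 1323, 888 and 757 in KO and 3738, 1847, 3641 and 2407 in WT. Every KO sample lay below every WT sample, with A8 the highest in KO and C6 the lowest in WT. It averaged 9.82 ± 0.38 in KO and 11.4 ± 0.49 in WT in log2 intensity (SD, n = 4) and fell 3.09-fold (log2 fold change -1.63, SE 0.29, 95 percent interval of the log2 fold change -2.29 to -0.97, adjusted p = 0.0161 in limma). Over all genes 7.38 percent were lower without overlap. The call was lost without A13 (adjusted p = 0.0578) and without C4 (adjusted p = 0.055), with log2 fold changes of -1.54 and -1.49, and it held in the 6 other fits that left out a sample (adjusted p from 0.00967 to 0.0495). Psme3 has 1 probe on the array, so no second probe bears on it.

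The other activators did not pass. Psme4, the nuclear activator PA200, gave 724, 1067, 951 and 846 in KO and 1299, 902, 1614 and 993 in WT, 1.32-fold lower with overlap (95 percent interval of the log2 fold change -0.93 to 0.13, adjusted p = 0.322). Psme1 and Psme2 encode the alpha and beta parts of the cytoplasmic activator PA28, which interferon induces. Psme1 was 1.14-fold higher at its brighter probe with overlap (adjusted p = 0.614) and 1.46-fold at the other without it (261 to 445 against 193 to 240, adjusted p = 0.149). Psme2 gave 108, 36.8, 92.5 and 112 in KO and 65.9, 74.3, 38.0 and 45.3 in WT, 1.49-fold higher with A8 the lowest of all samples (adjusted p = 0.384), and log2 0.95 without A8 against 0.57 with it. Its probe need not tell it from its close relative Psme2b. The part of interferon in the values of Psme1 and Psme2 was not tested.

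**Figure D4:**
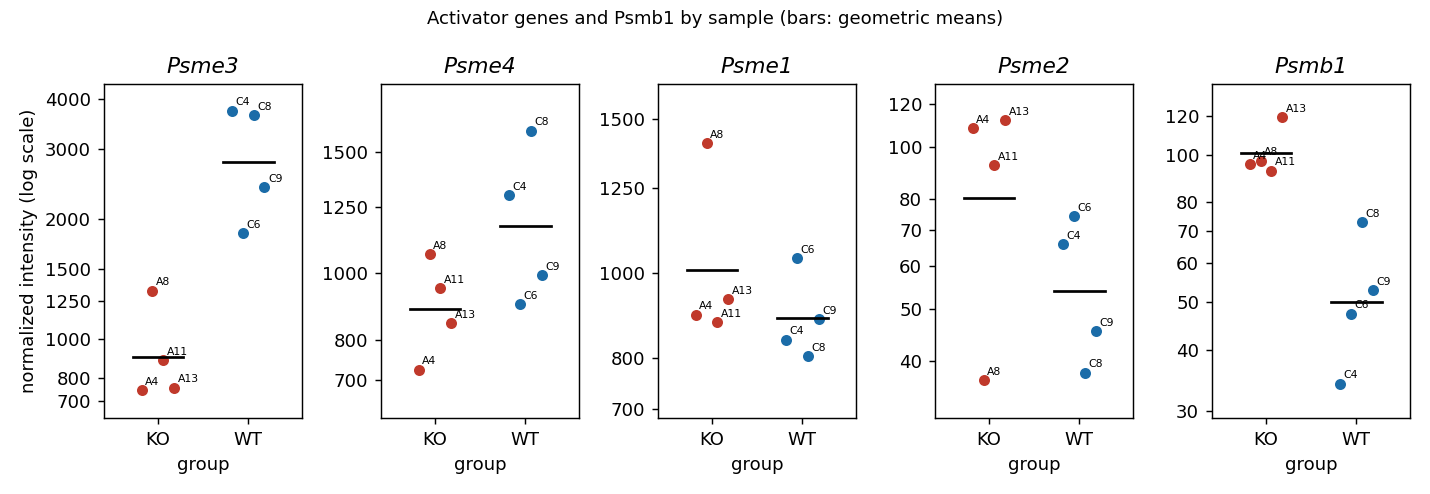
Normalized intensity (log axis) of the 4 activator genes and of Psmb1 in each KO and WT sample, with geometric means as bars. For Psme3 the KO samples (747 to 1323) lie below all WT samples (1847 to 3738), for Psmb1 they lie above (93.0 to 120 against 34.1 to 72.9), and the 3 other panels overlap.

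Promoter sequences are shown for Psme3, the gene that fell, for Psme1, an activator that did not, for Psma7, an alpha ring gene with both probes free of overlap, and for Psmb5, the catalytic gene with the least difference in the ring. Each spans 250 bases before to 50 after the annotated start in RefSeq, assembly GRCm38.p6, which holds such a sequence for 32 of the 38 genes. Psmb1, the gene that rose, is among those without one and enters no motif count. Capitals mark the motifs searched on both strands, CCAAT (the NF-Y box), TGACNNNGC (core of the antioxidant response element, which NFE2L1 binds in proteasome genes) and the interferon-stimulated response element (2 copies of GAAA with any 2 bases between them). The marked motif is an NF-Y box on the minus strand in Psme3 and on the plus strand in Psma7, the interferon element on the minus strand in Psme1, and the antioxidant element in Psmb5.
Psme3 promoter (chr11:101315963-101316262, plus strand): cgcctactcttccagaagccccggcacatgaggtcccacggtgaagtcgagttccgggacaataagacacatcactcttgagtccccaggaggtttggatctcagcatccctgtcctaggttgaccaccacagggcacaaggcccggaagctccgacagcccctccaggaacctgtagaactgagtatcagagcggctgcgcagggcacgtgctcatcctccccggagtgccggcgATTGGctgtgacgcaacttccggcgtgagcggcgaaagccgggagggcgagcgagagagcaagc
Psme1 promoter (chr14:55578244-55578543, plus strand): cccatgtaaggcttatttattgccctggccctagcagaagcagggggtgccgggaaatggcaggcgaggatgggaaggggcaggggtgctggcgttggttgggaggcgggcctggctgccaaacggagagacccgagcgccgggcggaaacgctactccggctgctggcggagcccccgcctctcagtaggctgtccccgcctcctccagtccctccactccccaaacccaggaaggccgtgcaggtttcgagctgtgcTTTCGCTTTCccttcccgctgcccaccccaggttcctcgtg
Psma7 promoter (chr2:180042415-180042714, minus strand): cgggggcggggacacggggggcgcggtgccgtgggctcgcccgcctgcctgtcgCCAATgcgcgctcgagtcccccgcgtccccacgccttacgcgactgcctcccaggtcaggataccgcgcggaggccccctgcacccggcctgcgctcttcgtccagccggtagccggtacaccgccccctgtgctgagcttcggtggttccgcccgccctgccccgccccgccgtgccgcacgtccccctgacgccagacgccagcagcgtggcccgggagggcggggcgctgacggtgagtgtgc
Psmb5 promoter (chr14:54617946-54618245, minus strand): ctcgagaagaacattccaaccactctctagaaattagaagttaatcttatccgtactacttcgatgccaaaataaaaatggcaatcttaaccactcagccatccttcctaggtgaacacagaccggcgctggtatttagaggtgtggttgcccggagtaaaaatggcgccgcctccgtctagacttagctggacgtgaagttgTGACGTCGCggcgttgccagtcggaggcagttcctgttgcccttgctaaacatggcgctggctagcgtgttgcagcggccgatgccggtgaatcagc

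The antioxidant core was found in 5 of the 32 promoters (Psmb5, Psmb6, Psmd9, Psmd12 and Psme4), or 15.6 percent, and in 12.4 percent of all 32851 promoters of that length. The NF-Y box was found in 10 of 32 (31.2 percent, against 37.4 percent of all). The interferon element was found in 4 of 32 (Psmb3, Psmd4, Psmd9 and Psme1, 12.5 percent, against 3.44 percent). A match describes letters in a window and not a bound site. The 5 genes with the antioxidant core had log2 fold changes of 0.07 (Psmb5), 0.27 (Psmb6), 0.43 (Psmd9), 0.40 (Psmd12) and -0.40 (Psme4), and none passed. The part of this motif in these values was not tested.

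Assembly factors of the barrel were higher without passing. Psmg1, Psmg2 and Psmg3 encode chaperones that build the alpha ring. Psmg2 gave 453, 618, 486 and 564 in KO and 343, 435, 314 and 366 in WT, 1.45-fold higher without overlap (adjusted p = 0.123 in limma). Its second probe was 2.05-fold higher without overlap and close to the threshold (209, 363, 329 and 296 against 94.4, 144, 183 and 170, adjusted p = 0.0584), and its dimmest 1.05-fold with overlap. Psmg1 gave 37.5, 60.3, 37.6 and 53.8 in KO against 41.7 in C6 and the floor of 20 in the 3 other WT samples. The floor may understate its measured fold of 1.93 (adjusted p = 0.0966). Its KO samples, where it was higher, carried it past the condition on intensity, so its difference is no support for a rise. Psmg3 was 1.54-fold higher with overlap (adjusted p = 0.226). Pomp, the maturation factor that completes the barrel and lies outside the symbol pattern, gave 1847, 1882, 1495 and 1844 in KO and 1129, 1586, 873 and 1082 in WT, 1.54-fold higher with C6 above A11 (adjusted p = 0.122).

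The 3 chaperones of the cap's base were less regular. Psmd10, known as gankyrin, was 1.26-fold higher at its brightest probe (adjusted p = 0.251), with A8 just below C6. Psmd9 gave 113, 50.1, 71.6 and 108 in KO and 36.9, 58.3, 78.0 and 79.1 in WT (1.35-fold, adjusted p = 0.456), and 2.24-fold at its dimmer probe, where KO gave 56.1, 88.5, 61.2 and 69.5 and WT 20, 60.6, 32.4 and 21.5 (adjusted p = 0.0876). Psmd5 gave 194, 156 and 210 in A4, A11 and A13 but 21.8 in A8, and 85.5 to 188 in WT. Its log2 fold change was -0.09 with all samples and 0.68 without A8 (adjusted p = 0.946 and 0.193).

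Of 33 listed symbols of proteasome partners outside the pattern, 16 were measured, and none passed in limma. The 33 include older symbols of Sem1, Ecpas and Ufd1, which were measured under their current ones. At an unadjusted p under 0.05, 2 of the 16 were higher and 1 lower, where 15.3 and 9.92 percent of all genes were. The median log2 fold change of the 16 was 0.25, where that of all genes was 0.11. Of the 16, 12 lay above 0, where 58.3 percent of all genes did. The smallest p values were those of Ufd1, a cofactor of the segregase VCP, with 51.7, 65.4, 37.9 and 44.8 in KO and 20, 42.1, 22.1 and 20 in WT (measured fold 1.98, adjusted p = 0.081), and of Pomp. Ufd1 met the condition on intensity through its KO samples, with C4 and C9 at the floor, so its difference is no support for a rise. Fbxo7, a ubiquitin ligase subunit that binds the proteasome inhibitor PI31 and was picked out after its values were seen, gave 358, 168, 339 and 327 in KO and 608, 291, 709 and 567 in WT, 1.81-fold lower with C6 below 3 KO samples (adjusted p = 0.165). Nfe2l1, also picked afterwards, encodes the factor that induces proteasome genes when the protease is blocked and had a log2 fold change of 0.03 (adjusted p = 0.968).

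Of the 16 genes with several tested probes, all 16 had fold changes of 1 sign at every probe. The second probe of Psmd12 met the condition on intensity through its 4 KO samples, so its sign adds nothing. The count is not set against all genes and only describes these probes. Of the 63 tested probes, 58 lay above the floor on all 8 arrays. The least detected inside the condition were the probe of Psmg1 and the second of Psmd12, each above the floor on 5 arrays. Just outside it were Psmb11, the thymus subunit, with at most 29.1 on 3 arrays, and a second probe of Psmd2, at or below 45.7 in A4, A11 and A13 and at the floor elsewhere. In all, 9 genes had no tested probe (Psma1, Psma3, Psma6, Psma8, Psmb11, Psmc6, Psmd3, Psmd6 and Psmg4), and 18 of the 23 untested probes were at the floor on every array. Of the 2 genes that only share the symbol pattern, Psmc3ip gave 565, 551, 525 and 448 in KO and 282, 352, 342 and 362 in WT, 1.56-fold higher without overlap (adjusted p = 0.0647), and Psme3ip1 was higher by 0.20 on the log2 scale with overlap (adjusted p = 0.559).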

How the data were processed

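RNA of 8 sorted samples (100 ng each, per the labels' protocols) was measured on Illumina bead arrays. The authors deposited 1 linear intensity per probe and array. The submitters' processing notes name BeadStudio 3.1.3 but, in the sources used here, no background or normalization setting. At 4959 of the 5000 highest ranks the 8 arrays agreed within 0.1 percent, as after quantile normalization, and 73.1 to 73.2 percent of probes per array sat at the lowest value, 20, which hides changes below it. The deposited score of signed fold change and its p-value column, per the file headers of KO against WT, served only as a check of scale and direction. That fold equalled the ratio of geometric mean intensities for all 45281 probes (relative tolerance 0.0001). A table of signals before normalization was not used, because its 8 signal columns match no sample label.

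Log2 intensities of the 12259 probes above 20 on at least 4 arrays were fitted in limma 3.58.1 (lmFit, eBayes; R 4.3.3), KO against WT with no covariate. P-values were adjusted by Benjamini-Hochberg over all of these probes. Array annotation named the genes, and a gene's value is that of its brightest tested probe by mean over arrays. Ratios were tested by exact permutation over samples. Named were genes past the threshold, the catalytic and immunoproteasome genes, the extremes of each role and, per further list, those with the smallest p. Other members are given so that all are accounted for. Members and lists were chosen with earlier results of these data known. The fit was tested on simulated data with known changes. The number of arrays limits the precision. Filters, an offset of 50, centring, the variance prior, array weights, other probes and left-out samples were tried as alternatives.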

Additional observations from a re-analysis of the deposited data

Results flagged for a closer look

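In 14 cases a sample of a group of 4 lay farther from its group at a proteasome probe than Dixon's 95 percent limit for 4 samples allows, a limit that chance passes in about 1 of 20 groups. They are 11.1 percent of the 126 groups tested, near the 12.5 percent of 24518 groups over all tested probes. KO sample A8 accounted for 6. It was low at a second probe of Psmb7 (129, other KO samples 670 to 859), of Psmc5 (164, against 668 to 744), of Psmd7 (91.2, against 368 to 475) and of Psmd10 (64.1, against 248 to 294), and at Psmd5 (21.8, against 156 to 210). It was high at Psme1 (1405, against 879 to 933). Over all tested probes A8 was low in this sense at 4.73 percent and high at 3.03 percent. WT sample C6 was high at Psma4 (1040, other WT samples 757 to 761), at Psmb4 (2708, against 2250 to 2295) and at Psmg1 (41.7, the others at 20), and high at 4.14 percent of all tested probes. WT sample C4, low at 0.644 percent of all tested probes, was low at Psmc1 (262, against 322 to 330) and at Psmd7 (439, against 524 to 542). WT sample C8, low at 1.12 percent and high at 2.03 percent of them, was low at the dimmer probe of Psme1 (193, against 235 to 240) and high at the dimmer probe of Psmd12 (34.0, the others at 20). KO sample A11, low at 0.326 percent of them, was low at the dimmer probe of Psmb10 (76.0, against 140 to 152). At Psmg1 and at the dimmer probe of Psmd12 the other WT samples were tied at the floor. Any value above 20 then passes the limit, so these flags were fixed in advance. The rate of 1 of 20 does not hold for such groups. The cause of the 14 values was not tested.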

How the results depend on the processing

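Of the numbers in the sample codes, 4 and 8 occur in both groups (A4 and C4, A8 and C8), and no label ties them. Deviations from the group means correlated at 0.26 and 0.22 over probes in these 2 pairs. With the number as a replicate block, chosen after seeing the data, limma kept 1 residual degree of freedom and called 0 proteasome genes and 0 probes either way. A sample whose number occurs once was taken up by its own block, so this fit compares only A4 and A8 with C4 and C8. At an unadjusted p under 0.05 it had 2 proteasome genes higher and 1 lower, and 945 and 991 probes. The barrel median was then 0.63 and the cap median 0.44. The count of 1 proteasome gene higher in KO was 5 with probes above the floor on at least 1 array and 3 with probes above it on all 8. It was 10 with an offset of 50, 6 with a trended robust prior and 10 with array weights, and ran from 0 to 6 with a sample left out. The 10 with array weights and the 6 without C6 include Psmg1. It had entered the test through its 4 KO samples, so these calls of Psmg1 support nothing. Psmb1 lost its call with the first filter (adjusted p = 0.0547) and the trended prior (0.0649). The count of 1 lower ran from 0 to 1 with a sample left out and was 1 under the 7 other settings. Over all probes there were 301 higher and 381 lower. With probes above the floor on at least 1 array these were 424 and 366, and on all 8 arrays 171 and 321. They were 409 and 394 with the offset, 425 and 424 with the trended prior and 836 and 702 with array weights. With a sample left out they ran from 91 to 557 and from 162 to 586. The median of the barrel ran from 0.50 to 0.63 with a sample left out and that of the cap from 0.37 to 0.49. The barrel and cap genes with an unadjusted p under 0.05, counted again after seeing the data, ran from 11 to 16. With a sample left out, the ratio difference ran from -1.98 to -0.44 for Psmb8 to Psmb5, from -0.56 to -0.064 for Psmb9 to Psmb6 and from -0.78 to -0.44 for Psmb10 to Psmb7. The last was -0.49 over all probes (exact permutation p = 0.229). Of 545 recomputed values of 38 genes, 11 changed sign, none of them called. With a sample left out, Psmb5 ran from -0.0080 (without A13) to 0.16, Psmb9 from -0.24 (without A8) to 0.22 and below 0 also without C8 (-0.049) and C9 (-0.042), Psmd8 from -0.075 (without C4) to 0.083 and below 0 also without A13 (-0.055), and Psmd5 from -0.41 to 0.68 (without A8), above 0 also without C9 (0.14). The others were Psmb9 with array weights (-0.16) and Psmd5 with the offset (0.067) and with array weights (0.48). The cause of these changes was not tested. Changes below the floor cannot be seen, and the median array shift under centring moved no proteasome call.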
